A study of Mus musculus with 6 samples.

Results

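Tescalcin and 6 S100 calcium-binding proteins were followed on 6 mouse bead arrays. The genes are Tesc, S100a1, S100a4, S100a6, S100a10, S100a11 and S100a13. Their 7 probes were taken by gene symbol from the platform annotation, 1 probe for each gene, out of 25697 probes on the array. The 7 genes were chosen from an earlier account of these same VPA and control arrays, so their changes between the 2 groups are given as a description, and nothing is drawn from their calls. All 7 passed the detection filter, which kept 7967 named genes. The arrays carried RNA of stem and progenitor cells with the L-S+K+ phenotype from bone marrow of C57Bl/6 mice. VPA cultures (n = 3) received 1 mM valproic acid, an inhibitor of histone deacetylases, and control cultures (n = 3) received growth factors alone. All cultures ran for 24 h with fetal calf serum, and the growth factors were SCF (stem cell factor) and GM-CSF. The sort was made before the culture, so the RNA is that of whatever cells were present after 24 h. The series design calls the 3 cultures of each group independent, and how many animals each came from is not given in the sources used here.

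EF-hand proteins bind calcium through a helix-loop-helix fold and change shape when calcium rises in the cell. S100 proteins are small EF-hand proteins that act as dimers, and on calcium binding most of them expose a surface that grips partners such as annexins and myosin. Several S100 genes are strongly expressed in myeloid cells. Tescalcin, encoded by Tesc, is an EF-hand protein of the calcineurin B homologous family that binds a sodium/proton exchanger of the plasma membrane. In human hematopoietic cells it has been described as acting before the factors Fli1, Ets1 and Ets2 in megakaryocyte development.

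The promoter windows of 4 members are shown because Tesc is the member with the widest gap between the groups, while S100a4 and S100a6 lie close together on chromosome 3 with S100a5 between them, and S100a1 and S100a13 start side by side in opposite directions. Each window holds 250 bases before and 50 bases after the transcription start, read 5′ to 3′ on the strand of the gene, from RefSeq with build GRCm38.p6. They lie at chr5:118027493-118027792 for Tesc, chr3:90603520-90603819 for S100a4, chr3:90612644-90612943 for S100a6 and chr3:90514185-90514484 for S100a13, all on the plus strand. In the first 3 lines capitals mark any of 4 motifs found on either strand, the GC box, the TATA box, the CCAAT box and the AP-1 motif. In the S100a13 line capitals mark the 104 bases between the start of S100a1 and that of S100a13.
Tesc: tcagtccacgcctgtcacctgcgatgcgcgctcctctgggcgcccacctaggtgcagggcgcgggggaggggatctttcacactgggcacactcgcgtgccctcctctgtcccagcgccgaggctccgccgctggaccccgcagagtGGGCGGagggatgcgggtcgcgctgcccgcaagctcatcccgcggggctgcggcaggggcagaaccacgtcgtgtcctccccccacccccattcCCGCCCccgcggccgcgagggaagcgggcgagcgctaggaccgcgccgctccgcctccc
S100a4: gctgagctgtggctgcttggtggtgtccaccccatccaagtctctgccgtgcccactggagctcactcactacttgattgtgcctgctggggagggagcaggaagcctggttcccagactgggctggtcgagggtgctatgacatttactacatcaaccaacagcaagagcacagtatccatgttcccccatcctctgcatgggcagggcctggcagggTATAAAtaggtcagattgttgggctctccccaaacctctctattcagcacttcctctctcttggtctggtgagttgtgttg
S100a6: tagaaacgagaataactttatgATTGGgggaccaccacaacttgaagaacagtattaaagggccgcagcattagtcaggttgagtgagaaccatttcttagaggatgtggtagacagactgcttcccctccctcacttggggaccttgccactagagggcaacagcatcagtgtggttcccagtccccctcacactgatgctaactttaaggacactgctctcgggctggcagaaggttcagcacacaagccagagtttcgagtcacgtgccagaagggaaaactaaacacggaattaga
S100a13: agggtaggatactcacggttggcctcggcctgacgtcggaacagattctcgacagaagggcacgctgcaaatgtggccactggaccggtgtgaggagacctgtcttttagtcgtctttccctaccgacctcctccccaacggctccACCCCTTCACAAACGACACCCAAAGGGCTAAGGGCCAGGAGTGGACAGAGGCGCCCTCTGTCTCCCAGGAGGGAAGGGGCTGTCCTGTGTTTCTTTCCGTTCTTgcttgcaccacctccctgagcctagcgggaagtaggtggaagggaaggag

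The Tesc window was rich in G and C, at 74.7%, with 36 CG dinucleotides, against a median of 52.7% and 7 over the 32851 windows of the table. Fewer CG dinucleotides were found in 93.8% of all windows. It held 2 GC boxes, at positions 148 and 242. The S100a4 window had 55.3% G and C, 2 CG dinucleotides and a TATA box at position 220. The S100a6 window had 49.3% G and C and 6 CG dinucleotides, with a CCAAT box on the opposite strand at position 23. S100a1 lies on the minus strand, and its start was 105 bases from that of S100a13, so that their windows shared 204 bases. Neither of these 2 windows held any of the 4 motifs, at 61% and 59.3% G and C. The S100a11 window, with 61.7% G and C, held 3 GC boxes and 2 AP-1 motifs that overlap no GC box. The letters searched on both strands for the GC box were GGGCGG, and 35.7% of all windows held them. The CCAAT box was searched by the letters of its name, which 37.4% of all windows held. The TATA box was searched as TATAAA, present in 13.6% of all windows, and the AP-1 motif, in which N stands for any base, as TGANTCA, present in 7.81%. Of the members, 6 of 7 were matched to a window, all but S100a10.

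Before the values, VPA replicate 1 has to be set apart. On this array the kept probes had a median raw signal of 226, and it was 456 to 474 on the other VPA arrays and 496 to 647 on the control arrays. Relative to probes detected on no array, that median was 2.38 times as high on VPA replicate 1 and 4.01 to 4.92 times as high on the other 5 arrays. For the 1924 genes with at least 2 kept probes, the deviation of an array from the mean of the other 2 arrays of its group was compared between the 2 brightest probes. The median difference between these probes was 0.54 on the log2 scale for VPA replicate 1, 0.29 and 0.34 for VPA replicates 2 and 3, whose comparison includes replicate 1, and 0.16 to 0.18 for the control arrays. Each member has a single probe, so no second probe was available to check it. Normalized log2 signals of single genes are compared between arrays only within a probe, since probes differ in how brightly they bind. The sums over cell type markers given below add different probes, so the brightest probes weigh most in them.

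Tesc passed detection on each of the 3 VPA arrays, whereas 0 of 3 control arrays detected it. Its normalized log2 signal was 7.16, 8.29 and 7.64 on VPA replicates 1 to 3, against 4.88, 5.27 and 5.27 on control replicates 1 to 3. The groups did not overlap, and the lowest VPA array lay 1.89 above the highest control array. The means were 7.70 ± 0.57 with VPA and 5.14 ± 0.22 in control (SD, n = 3 each), a fitted log2 change of 2.56 ± 0.29 (SE). Since no control array measured the transcript above background, its fold is a bound. In the normalization used for these values, Tesc was at least 4.32-fold higher with VPA. In bulk RNA a larger share of cells with a transcript and more of it per cell cannot be told apart.

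The raw Tesc signals, before any background correction, were 139.8, 412 and 294 on VPA replicates 1 to 3, against 140.6, 134 and 150.4 on control replicates 1 to 3. VPA replicates 2 and 3 were brighter than every control array, whereas VPA replicate 1 lay within the control range on this scale. The lowest detected signal on that dim array was 104, while it was 148 to 180 on the control arrays. The log2 change without VPA replicate 1 was 2.82 ± 0.22 (SE). In the authors' deposited log2 values Tesc was at 7.68, 8.30 and 7.92 on the VPA arrays and at 6.80, 6.96 and 6.97 on the control arrays, a change of 1.05. Without background correction the change was 1.17, and with normexp it was 1.54. These changes lie below the bound, 2.11 on the log2 scale, so that the bound of the main normalization does not hold in those settings. With median scaling the change was 2.37, which lies above it.

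**Figure D1:**
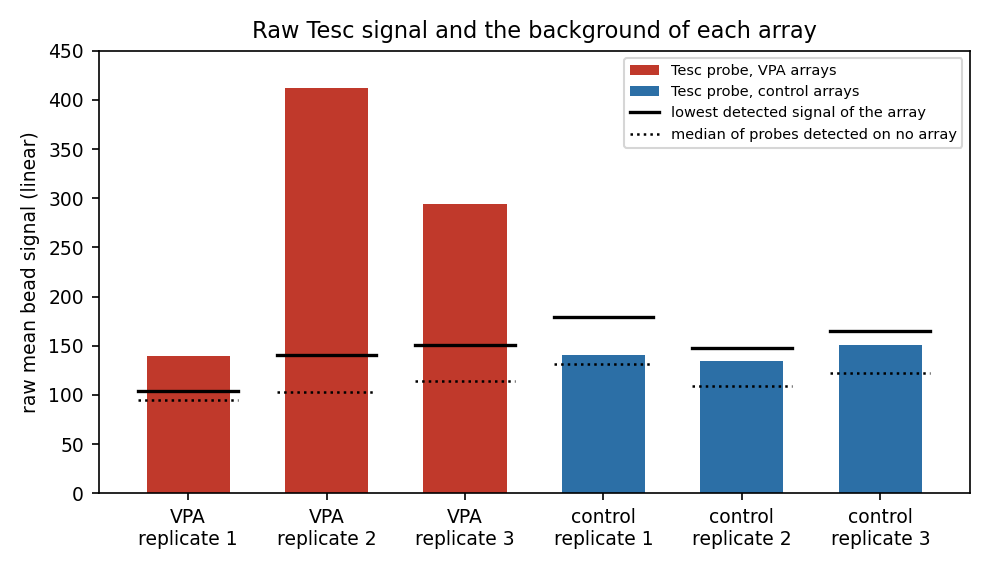
Raw mean bead signal of the Tesc probe on each array (linear axis, bars), with the lowest detected signal of the array (solid line) and the median of probes detected on no array (dotted line). All 3 VPA bars reach above their solid line, and the 3 control bars stay below theirs.

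By the rule of smallest root mean square difference over the 6 arrays, after each gene's control mean was subtracted, the profile of Tesc was most like that of Sel1l3, at 0.30 on the log2 scale. Next came B4galnt4, a glycosyltransferase, at 0.33, the protein kinase C gene Prkcb at 0.36, Col18a1, which encodes a basement membrane collagen, at 0.39, and the creatine transporter gene Slc6a8 at 0.44. Sel1l3, B4galnt4 and Slc6a8 were, like Tesc, detected on 3 VPA arrays and 0 control arrays. Their folds are bounds in the main normalization, at least 3.30-fold, 3.54-fold and 3.53-fold higher with VPA. Prkcb and Col18a1 were detected on all 6 arrays, with log2 changes of 2.67 and 2.45. The 6 S100 members were farther away, from 1.37 for S100a6 to 2.30 for S100a4. Since control means were subtracted, this distance follows mostly from the size of each gene's change with VPA, so nothing further is read from it.

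Over all 6 arrays the S100 members, in contrast to Tesc, had overlapping groups and no common direction. Without VPA replicate 1 the log2 change was -0.15 for S100a1 and above 0, from 0.20 to 1.08, for the others. By limma on all 6 arrays over all kept probes at adjusted p 0.05, 1 of the 7 members, Tesc, was called higher, where 3.41% of all genes were. Called lower were 0, where 0.314% of all genes were. The groups of 1 of 7 members did not overlap, against 27.9% of all genes. The median log2 change of the 7 was -0.01 and that of all genes -0.02. As the members were chosen with this contrast known, nothing is read from these counts.

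**Figure D2:**
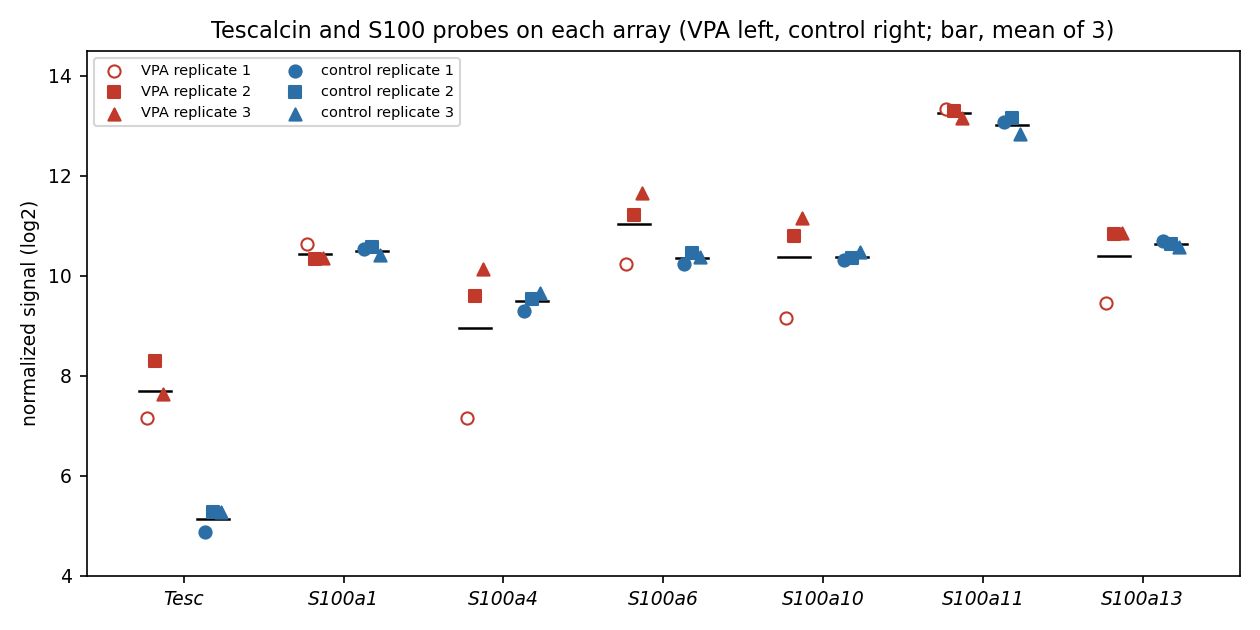
Normalized log2 signal of each member on each array, VPA left of control, with the mean of 3 arrays as a bar; the open circle is VPA replicate 1. Only for Tesc do all VPA points lie above all control points, and for S100a4, S100a10 and S100a13 the open circle lies below every other array.

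S100a6, or calcyclin, which binds annexins and the calcyclin-binding protein, had the largest positive difference among the S100 members. Its log2 signal was 10.24, 11.21 and 11.65 on VPA replicates 1 to 3, against 10.23, 10.45 and 10.38 on control replicates 1 to 3. VPA replicates 2 and 3 were above every control array and VPA replicate 1 lay inside the control range. The log2 change was 0.68 ± 0.33 (SE, n = 3 each), and 1.08 ± 0.16 without VPA replicate 1.

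S100a4, which binds the heavy chain of non-muscle myosin and is linked to cell motility, had the widest spread of all members. It stood at 7.15, 9.59 and 10.14 on VPA replicates 1 to 3, against 9.30, 9.53 and 9.66 on control replicates 1 to 3. VPA replicate 1 was far below all other arrays, and VPA replicates 2 and 3 were within or above the control range. The SD was 1.59 with VPA and 0.18 in control. The log2 change of -0.54 ± 0.69 took the opposite sign, 0.37 ± 0.19, without VPA replicate 1.

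S100a10 differs from its relatives in that it does not need calcium. It forms a stable complex with annexin A2 that tethers proteins at the plasma membrane and binds plasminogen. Its log2 signal was 9.15, 10.80 and 11.15 on VPA replicates 1 to 3, against 10.31, 10.35 and 10.48 on control replicates 1 to 3. VPA replicate 1 was the lowest of the 6 arrays, and VPA replicates 2 and 3 were the highest. The log2 change was -0.01 ± 0.47 over 6 arrays and 0.60 ± 0.15 without VPA replicate 1. The probe of its partner Anxa2 did not share this spread, with 11.97, 11.99 and 11.92 on the VPA arrays against 11.65, 11.79 and 11.79 on the control arrays (log2 change 0.22 ± 0.14, adjusted p = 0.450 by limma).

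S100a13, which takes part in the release of growth factor and cytokine proteins that lack a signal peptide, stood at 9.46, 10.84 and 10.86 on VPA replicates 1 to 3, against 10.70, 10.63 and 10.57 on control replicates 1 to 3. Here too VPA replicate 1 was the lowest array and VPA replicates 2 and 3 the highest. The log2 change was -0.25 ± 0.36, and 0.22 ± 0.11 without VPA replicate 1. S100a1, known from heart and skeletal muscle where it acts on calcium release and uptake, shares its start region with S100a13. It stayed within a narrow range, at 10.63, 10.33 and 10.36 on the VPA arrays against 10.53, 10.57 and 10.41 on the control arrays. Its log2 change was -0.06 ± 0.15, and -0.15 ± 0.12 without VPA replicate 1.

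S100a11, a partner of annexin A1, was at 13.33, 13.29 and 13.15 on VPA replicates 1 to 3, against 13.08, 13.15 and 12.83 on control replicates 1 to 3. The lowest VPA array and the highest control array were practically level, and the log2 change was 0.24 ± 0.15. Without VPA replicate 1 it was 0.20 ± 0.14. The probe of Anxa1 had a log2 change of -0.26 ± 0.33 (adjusted p = 0.712 by limma). Anxa1 too was lowest on VPA replicate 1, and its change without that array was 0.13.

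The S100 members differed in how far VPA replicate 1 lay from the mean of VPA replicates 2 and 3. That difference was -2.71 for S100a4, and 0.0502% of the 7967 genes had a difference as low or lower. It was -1.83 for S100a10 (1.04% of genes), -1.39 for S100a13 (3.54%) and -1.18 for S100a6 (6.35%), but 0.11 for S100a11 and 0.29 for S100a1. The median over all genes was 0.07. Without that array, by limma, 2 members were called higher, Tesc and S100a6, in a fit that called 6.2% of all genes higher. Weighting the arrays by their quality called 3 members higher, Tesc, S100a6 and S100a10, in a fit that called 17.1% of all genes higher.

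**Figure D3:**
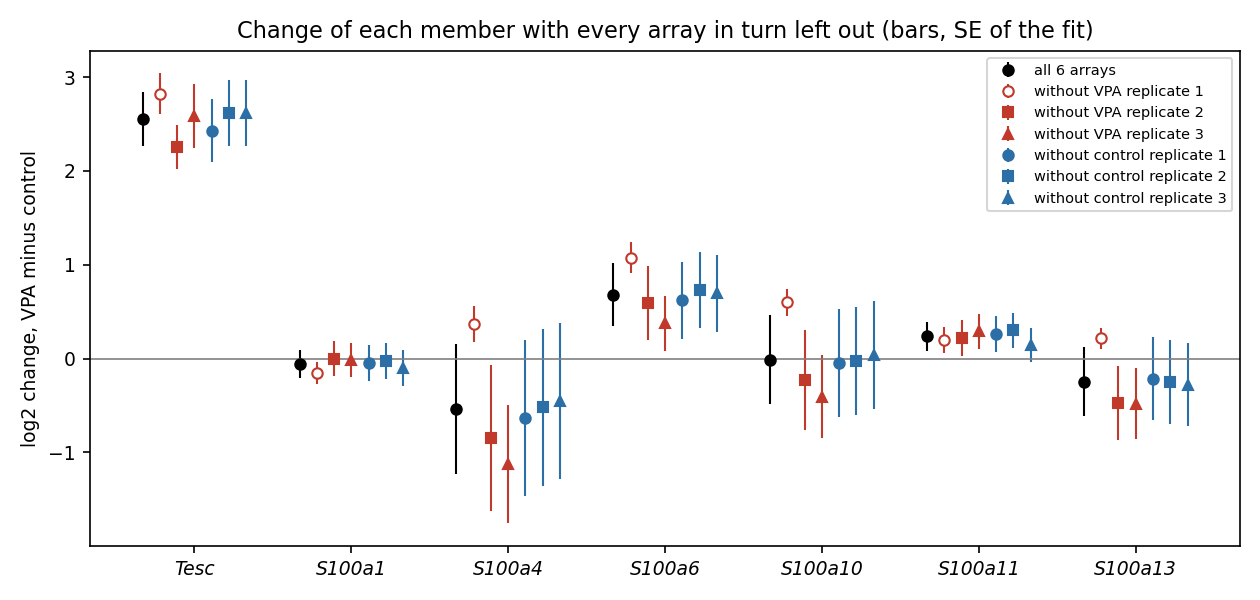
Log2 change of each member, VPA minus control, in the fit of all 6 arrays and with each array in turn left out (bars, SE of the fit). Tesc stays between 2.26 and 2.82, S100a4, S100a10 and S100a13 lie above 0 without VPA replicate 1, and S100a10 also does so without control replicate 3.

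Myeloid markers were set beside these values because S100 genes are strongly expressed in such cells. The summed normalized signal of 4 measured macrophage and dendritic cell markers (Adgre1, Mrc1, Ly86 and Lyz2) was 715 on VPA replicate 1, 1515 and 1626 on VPA replicates 2 and 3, and 1255 to 1806 on the control arrays. Most of it came from Lyz2, lysozyme, whose brightest probe read 8.69 on VPA replicate 1, 10.06 and 10.49 on VPA replicates 2 and 3 and 9.89 to 10.27 on the control arrays. A second Lyz2 probe went the other way, with 10.02 on VPA replicate 1, 8.99 and 9.21 on VPA replicates 2 and 3 and 9.01 to 9.91 on the control arrays. The markers Itgam and Itgax were detected on 0 arrays. For 9 neutrophil markers the sum was 30373, 39420 and 23466 on VPA replicates 1 to 3, against 37137 to 52994 in control. In that list VPA replicate 3, and not replicate 1, was the lowest array. For 10 stem and progenitor cell markers the sum was 23780, 25415 and 27256 on VPA replicates 1 to 3, against 22858 to 25213 in control. Lmo2 was the brightest of these 10 and weighs most in their sum, with a mean log2 signal of 13.61 with VPA and 13.55 in control. The part of cell composition or of array quality in the S100 values was not tested.

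Of the marker genes, Mrc1 (log2 change -1.66 ± 0.25), Cpa3, Dntt and Il7r fell with VPA and Epor rose. Il7r was detected on 0 VPA arrays and Epor on 0 control arrays. Their folds are bounds in the main normalization, at least 2.99-fold lower for Il7r and at least 1.45-fold higher for Epor. Dntt was detected on 1 of 3 VPA arrays, and Mrc1 and Cpa3 on 2 of 3. The call ended in 11 of 16 alternatives for Epor, in 3 of 17 for Mrc1 and in 2 of 17 for Cpa3, each including control arrays left out, and in 0 of 17 for Dntt and Il7r. Within the lists of Mrc1 and Cpa3 the other measured markers went either way without passing the threshold. In the macrophage and dendritic cell list Adgre1 had a log2 change of 0.78 ± 0.33, Ly86 -0.90 ± 0.37 and Lyz2 -0.36 ± 0.43 (list median -0.63). In the mast cell and basophil list Hdc had 1.28 ± 0.51, Prss34 0.97 ± 0.29 and Mcpt8 -0.78 ± 0.39 (list median -0.68). Fcer1a of that list, detected on 1 of 3 VPA arrays, had -0.68 ± 0.14 (adjusted p = 0.0506 by limma). The summed signal of the 5 measured mast cell and basophil markers was 613 to 1116 with VPA, against 654 to 943 in control. Of the others, Camp had -1.37 ± 0.38, Ngp -1.34 ± 0.40, Ptprc -0.38, Tal1 0.33, Pf4 -0.22 and Vwf 0.21, none past the threshold. In the neutrophil list 0 of 9 measured genes passed, 4 being lower at an unadjusted p under 0.05. The log2 changes of this list ran from -1.37 to -0.07, with a median of -0.75, against -0.02 for all genes. In the stem and progenitor list 0 of 10 measured genes passed, 1 being higher at an unadjusted p under 0.05, and Hlf was detected on 0 arrays. The share of all genes at that unadjusted p is not given here, so nothing is read from the unadjusted counts of these 2 lists.

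Among the other S100 genes 1 rose, where 3.41% of all genes were called higher. Of 11 listed, 9 had a named probe and 4 passed the detection filter, while S100a3, S100a7a, S100b and S100g were detected on 0 arrays and S100a16 on 1 array of each group. The gene that rose was S100a5. This relative of S100a4 and S100a6, encoded between them, stood at 7.82, 7.44 and 7.18 on VPA replicates 1 to 3, against 6.59, 6.52 and 6.58 on control replicates 1 to 3. Every VPA array lay above every control array, and the gene was 1.89-fold higher with VPA (log2 change 0.92 ± 0.19 SE, n = 3 each, adjusted p = 0.0487 by limma). Unlike S100a4, it was highest on VPA replicate 1, and without that array the log2 change was 0.75 (adjusted p = 0.0161). Its call ended in 11 of 18 alternatives, among them each control array left out in turn (adjusted p 0.179 to 0.209), VPA replicate 2 left out (0.135), no background correction (0.0900) and the replicate block (0.0785).

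S100a8 and S100a9, the calprotectin genes of neutrophils and monocytes, were not past the threshold. S100a8 stood at 14.28, 14.61 and 13.79 on the VPA arrays against 14.08, 13.56 and 14.38 on the control arrays (log2 change 0.22 ± 0.28, adjusted p = 0.710). S100a9 stood at 11.87, 13.63 and 12.81 on the VPA arrays against 13.06, 12.47 and 13.26 on the control arrays (log2 change -0.16 ± 0.43, adjusted p = 0.864). S100a9 was lowest on VPA replicate 1, and without it its change was 0.29. S100a14 was detected on 2 of 3 VPA arrays and on all control arrays, with a log2 change of -0.45 ± 0.31 (adjusted p = 0.498). Without VPA replicate 1 that of S100a14 was -0.08.

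The relatives and partners of tescalcin did not pass. Of 12 listed genes 9 were measured and 0 passed by limma, with 0 at an unadjusted p under 0.05. In the fit with array weights 3 passed, 1 higher and 2 lower, where 2493 of all 7967 genes passed. The median log2 change in the main fit was 0.04, against -0.02 for all genes. Chp1, another calcineurin B homologous protein, had a log2 change of -0.07 ± 0.29, or 0.28 without VPA replicate 1, and Chp2 was detected on 0 arrays. The largest differences were those of Ets1, 0.53 ± 0.32 (adjusted p = 0.431), and of the COP9 signalosome subunit gene Cops4, -0.27 ± 0.16 (adjusted p = 0.431). A second kept Cops4 probe, dimmer and so not counted, had a log2 change of -0.81 ± 0.27, with an unadjusted p of 0.0176 and an adjusted p of 0.182, and its groups did not overlap. Averaging both probes gave -0.54 (adjusted p = 0.163). Of the other Ets family factors Fli1 had 0.03 ± 0.38 and Ets2 0.04 ± 0.14. Ets1 and Fli1 were highest on VPA replicate 1, and without it their log2 changes were 0.16 and -0.41.

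Among the annexins, the membrane-binding proteins that many S100 dimers grip, 1 of 8 measured genes rose and 7 did not pass. Over all genes 3.41% were called higher. The median log2 change of the 8 was 0.05, against -0.02 for all genes. Anxa6, which binds membranes and actin, was at 11.31, 11.03 and 11.04 on VPA replicates 1 to 3, against 10.12, 10.17 and 10.13 on control replicates 1 to 3. The groups were well apart, and Anxa6 was 1.98-fold higher with VPA (log2 change 0.99 ± 0.15, adjusted p = 0.0154 by limma). The log2 change without VPA replicate 1 was 0.90. Its call ended in 6 of 18 alternatives, namely with each control array left out in turn, without VPA replicate 2, with median scaling and with the replicate block (adjusted p = 0.0508), up to an adjusted p of 0.106. Of 21 other S100 partners 10 were measured and 0 passed by limma, with 0 at an unadjusted p under 0.05. With array weights 2 passed, 1 higher and 1 lower, where 2493 of all 7967 genes passed. The median log2 change of the 10 in the main fit was -0.32, against -0.02 for all genes, with Sugt1 at -0.45 ± 0.44 and Metap2 at -0.41 ± 0.22. Cacybp, which binds S100A6, had -0.25 ± 0.32, and the myosin gene Myh9, whose product S100A4 binds, had -0.34 ± 0.25. Sugt1, Cacybp and Myh9 were each lowest on VPA replicate 1, and without that array their log2 changes were 0.09, 0.14 and -0.06.

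Of 68 other EF-hand genes 35 were measured, of which 3 rose and 32 did not pass, where 3.41% of all genes were called higher. The median log2 change of the 35 was 0.02, against -0.02 for all genes. Aif1l, an actin-binding protein, stood at 8.69, 7.93 and 8.02 on VPA replicates 1 to 3, against 6.13, 6.69 and 6.45 on control replicates 1 to 3. It was 3.46-fold higher with VPA (log2 change 1.79 ± 0.25, adjusted p = 0.0121 by limma). The centrin gene Cetn4 was 2.48-fold higher (1.31 ± 0.16, adjusted p = 0.00810), and a second Cetn4 probe was detected on 0 arrays. Dgka, a diacylglycerol kinase that calcium activates, was 1.95-fold higher (0.96 ± 0.18, adjusted p = 0.0359). A second kept probe of Dgka gave a log2 change of 0.83 and did not pass (adjusted p = 0.178). The call ended in 2 of 18 alternatives for Aif1l (control replicate 1 or 3 left out, adjusted p up to 0.0816), in 4 for Cetn4 (median scaling or any control array left out, up to 0.0677) and in 8 for Dgka (up to 0.191). Without VPA replicate 1, 6 of the 35 rose, in a fit that called 6.2% of all genes higher. The counts were 0, 1 and 0 without control replicates 1, 2 and 3.

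**Figure D4:**
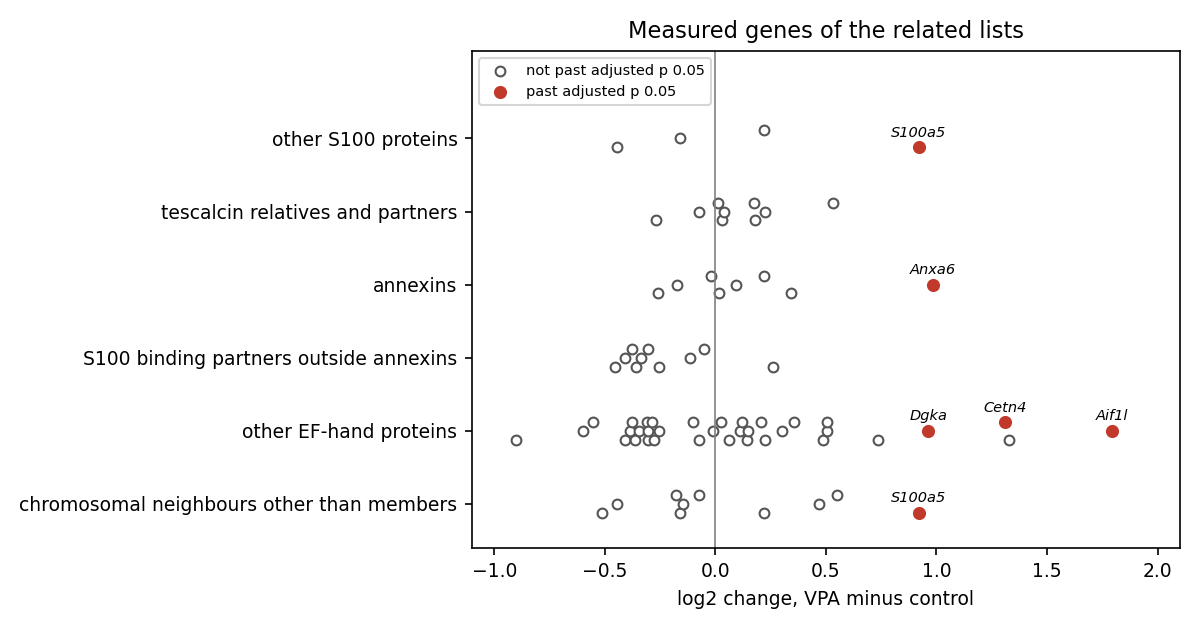
Log2 change, VPA minus control, of every measured gene in the lists of related genes and of chromosomal neighbours (1 point per gene, filled where past adjusted p 0.05). The filled points are S100a5 (in 2 lists), Anxa6, Aif1l, Cetn4 and Dgka, all to the right of 0.

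Neighbours on the chromosome were taken by position alone, up to 3 protein-coding genes on each side of each member in the RefSeq gene table. They came to 29 genes, 6 of them members, and of the 23 others 10 were measured. S100a5 rose and the other 9 did not pass, where 3.41% of all genes were called higher. At an unadjusted p under 0.05, 3 of the 10 were higher. The share of all genes at that unadjusted p is not given here, so nothing is read from the 3. The median log2 change of the 10 was -0.11, against -0.02 for all genes. Next to Tesc on chromosome 5, Fbxo21 had a log2 change of 0.47 ± 0.18 (adjusted p = 0.234) and Fbxw8 one of 0.55 ± 0.20 (adjusted p = 0.215), while Nos1, Hrk and Rnft2 were detected on 0 arrays. Beside S100a1 on chromosome 3, Chtop, Snapin and Ilf2 had log2 changes of -0.15, -0.18 and -0.07.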

How the data were processed

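Per the file headers, the deposited table holds the raw mean signal intensity of each probe on each single-colour Illumina array and a detection p-value. The submitters' processing notes name GenomeStudio but no version of it. A second deposited table holds log2 values with the same mean, SD and maximum on every array, and its method is not given in the sources used here.

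Signals were corrected and normalized with neqc of limma 3.58.1 under R 4.3.3 (background inferred from the detection p-values, offset 16, quantile normalization, log2). The filter kept 11115 probes (43.3%), those detected at p 0.05 on 3 or more arrays. The VPA effect was fitted with lmFit and eBayes, with Benjamini-Hochberg adjustment over these probes. Of a gene's kept probes, the text gives the brightest on average. In GEO's platform annotation 23978 probes had 1 symbol, 0 had several and 1719 had none, and 0 symbols changed through the RefSeq gene table of GRCm38.p6. A bound takes, for each array without detection, its lowest detected signal, or the signal of the probe where that is higher.

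The members and lists were chosen with earlier results of these data known. Named genes are the members, from each list up to 4 past the threshold (2 for cell type markers) by size of change, or the 2 largest changes where none passed, and the 5 profiles nearest to Tesc. Genes outside this rule were named after their values were seen. These were the Ets factors, the partners of named S100 proteins, S100a8, S100a9, S100a14, Chp1, Chp2 and the neighbours. Among the cell type markers they were Adgre1, Ly86, Lyz2, Hdc, Prss34, Mcpt8, Fcer1a and Lmo2. With 3 arrays against 3, the number of arrays limits the precision. The fit was tested on simulated data, with changes put only into bright probes and the same spread of a probe on every array. Neither a changed gene undetected in control nor an array of weaker signal was simulated. Alternatives were other background corrections, scaling, filters, variance models, array weights, a replicate block, arrays left out and averaging all kept probes per gene.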

Additional observations from a re-analysis of the deposited data

How the results depend on the processing

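The log2 change of Tesc was 1.05 to 3.10 over the 17 alternatives that gave it a value. It has none among genes detected on all 6 arrays, which leaves 0 members past the threshold. Over all genes 297 passed, 131 with median scaling, 2493 with array weights, 598 with VPA replicate 1 out of the normalization too, and 59 (without control replicate 1) to 621 (without VPA replicate 1) with an array left out. Median scaling put the median log2 change of all genes at -0.29, with S100a11 at 0.03 and S100a1 at -0.38. Members past the threshold numbered 3 with array weights, 2 with VPA replicate 1 out of the normalization too, and 1 to 2 with an array left out. With array weights 3 other S100 genes, 3 tescalcin relatives, 3 annexins, 2 other S100 partners, 17 other EF-hand genes and 8 neighbours passed, where neighbours are here the 16 measured ones, members included, so that S100a6 and S100a10 are among the 8. With median scaling these were 0 other S100 genes, 0 annexins, 1 other EF-hand gene and 0 neighbours. Other S100 genes and neighbours both came to 0 with no background correction, with normexp, in the deposited values, with no detection filter and with the trended robust variance. Arrays left out gave 0 to 1 other S100 genes, 0 to 1 annexins, 0 to 6 other EF-hand genes and 0 to 2 neighbours. With VPA replicate 1 out of the normalization too, 6 other EF-hand genes and 2 neighbours passed, S100a6 being 1 of these neighbours. No pairing of the replicate numbers is stated. The deviations of same-numbered arrays correlated at r = 0.13, -0.06 and 0.05, which cannot settle whether cultures were paired, with 3 arrays per group. The replicate block gave 191 genes in all, 0 other S100 genes, 0 annexins and 0 neighbours. With array weights the log2 change was 0.092 for S100a4, 0.20 for S100a13 and 0.43 for S100a10, each below 0 with equal weights, and S100a10, at -0.01, was also just above 0 with no background correction (0.012), with normexp (0.0031) and in the deposited values (0.022). In other genes not past the threshold the sign turned for Sugt1 without VPA replicate 1 (0.0893 in a range of -0.85 to 0.0893 over arrays left out, and 0.0909 with it out of the normalization too), for Pf4 with array weights (0.31) and without VPA replicate 1 (0.25 in a range of -0.49 to 0.25, and 0.24 with it out of the normalization too), and for Vwf with median scaling (-0.0847) and array weights (-0.0046). The cause of these differences was not tested.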
